A study of Mus musculus with 2 samples.

Results

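The Mir322 to Mir450b cluster is a run of 7 microRNA genes on the minus strand of the mouse X chromosome: Mir322, Mir503, Mir351, Mir542, Mir450-2, Mir450-1 and Mir450b, in the order in which they would be transcribed. They were picked by gene symbol, through the Ensembl identifiers of the count tables, and all 7 were found among the 1973 microRNA loci counted. The tissue was the facial prominence of B6NCrl embryos aged 11.5 days, described as healthy, with males and females pooled. The study held 1 group of 2 biological replicates and no treatment or genetic alteration is named: replicate 1 was a pool from 109 embryos and replicate 2 a pool from 88. The labels give both pools 1 donor identifier, and small RNA below 30 bases was sequenced from total RNA.

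A microRNA gene is copied into a primary transcript, trimmed to a hairpin and then cut to a duplex, and either arm of the duplex (5p or 3p) can be loaded into Argonaute. The loaded strand finds messenger RNAs mainly through its seed, bases 2 to 8, and loci with the same seed are expected to bind overlapping sets of sites. Mir322, the mouse counterpart of human miR-424, and Mir503 are known as brakes on cell cycle genes of the cyclin D and Cdc25a kind and as promoters of muscle differentiation, while Mir351 carries the seed of the miR-125 family. Neighbouring loci of such a cluster can be processed from a shared precursor, so a comparison of their levels and of their ratios between pools asks how evenly the neighbours are represented as mature small RNA.

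The mature sequences show how the members are related and are printed for that reason. They came from RefSeq on GRCm38.p6, where mature sequences matched all 7 members. Capitals mark the seed, and positions are counted from the 5′ end of the mature sequence. Mir322 is set beside Mir503 and beside Mir15a and Mir16-1, loci of the miR-15/16 family elsewhere in the genome.
miR-322-5p: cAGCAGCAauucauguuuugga
miR-503-5p: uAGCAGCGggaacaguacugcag
miR-15a-5p: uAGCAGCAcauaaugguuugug
miR-16-5p: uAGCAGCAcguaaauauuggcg
miR-322-5p and miR-15a-5p had the same seed. miR-503-5p differed from miR-322-5p within the seed only by A8G, at the last seed base, so it formed a seed group of its own in the table. Over the 22 bases that could be compared, miR-322-5p was identical to miR-503-5p at 11 and to miR-15a-5p at 15.

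The 5p arm of Mir351 is shown with the arms of Mir125a and Mir125b-1, because all of them begin alike.
miR-351-5p: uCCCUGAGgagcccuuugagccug
miR-125a-5p: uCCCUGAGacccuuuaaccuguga
miR-125b-5p: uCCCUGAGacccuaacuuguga
The first 8 bases were identical in all of these arms. After them miR-351-5p and miR-125a-5p went apart, with 10 of 24 bases identical in total.

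The remaining members are shown because 3 of them are related in sequence. Of these, Mir450-1 and Mir450-2 share a whole mature arm, which bears on how their reads could be counted. Mir542 stood alone with its 3p seed.
miR-542-3p: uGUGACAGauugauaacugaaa
miR-450a-5p: uUUUGCGAuguguuccuaauau
miR-450b-5p: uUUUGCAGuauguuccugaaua
miR-450a-1-3p: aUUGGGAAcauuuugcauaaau
miR-450b-3p: aUUGGGAAcauuuugcaugcau
Mir450-1 and Mir450-2 both encode miR-450a-5p without a single difference. miR-450b-5p differed from it at 7 of 22 bases, of which G7A and A8G lie in the seed. The 3p arms of Mir450-1 and Mir450b were identical over their first 18 bases and differed only by A19G and A20C, and they shared a seed.

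The hairpins of Mir450-1 and Mir450-2 make the overlap plain. Capitals here mark the longest stretch that both hairpins contain, 25 bases, which includes all of miR-450a-5p.
Mir450-1: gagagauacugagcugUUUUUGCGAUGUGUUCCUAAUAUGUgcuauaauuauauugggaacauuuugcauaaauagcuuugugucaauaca
Mir450-2: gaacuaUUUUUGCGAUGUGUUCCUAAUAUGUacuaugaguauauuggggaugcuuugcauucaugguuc
A read of miR-450a-5p therefore has at least 2 equally good positions in the genome. Reads placed at several positions are held in a class of their own in the deposited tables and are assigned to no gene. The counts of Mir450-1 and Mir450-2 are thus incomplete. Hairpin sequences matched 6 of the members, all but Mir351, so shared stretches were not examined for Mir351. Neither mature arm of Mir351 occurred in another hairpin of the table. Outside the cluster, the longest stretch that any of these 6 shared with another hairpin was 13 bases, for Mir450-2, so the same limit was not seen at Mir322, Mir503, Mir542 or Mir450b with regard to loci elsewhere. Mir450b shared at most 19 bases with Mir450-1.

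The 7 loci span 6353 bases on mm10 (GRCm38), from 53047997 to 53054349 of chromosome X. Mir322 lies at 53054255 to 53054349, Mir503 at 53053984 to 53054054 and Mir351 at 53053255 to 53053353, so that the first 3 loci fit into 1095 bases. A gap of 3767 bases follows, which contains the long non-coding RNA gene Gm28730 on the same strand. Mir542 lies beyond it at 53049403 to 53049487, followed by Mir450-2 (53048299 to 53048367), Mir450-1 (53048154 to 53048244) and Mir450b (53047997 to 53048078). GENCODE M21 annotates all 7 as genes of their own and none inside an exon or intron of another gene. Within 50 kb the annotation held 4 further genes, none of them counted in the tables: Gm28730, the non-coding C430049B03Rik upstream of Mir322, Plac1, a placental gene on the same strand, and Hprt, the purine salvage gene, on the opposite strand. GC content set the last 3 hairpins apart. It was 51.6% in Mir322, 54.9% in Mir503 and 51.8% in Mir542, close to the median of 51.7% over 1005 hairpins, and 36.2%, 33.0% and 30.5% in Mir450-2, Mir450-1 and Mir450b.

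Library depth was 1941745 sense counts over all loci in replicate 1 and 2319881 in replicate 2. Levels are given as CPM, sense counts scaled to a library total of 1000000, in which 1 count was worth 0.515 and 0.431 CPM. A small-RNA read usually covers a whole mature microRNA, so CPM was not divided by gene length, and each count pools both arms of a hairpin. How efficiently each sequence was ligated and amplified also enters a level, and was not tested. Markers of the labelled tissue were present: all 7 mesenchymal and all 7 epithelial loci had at least 10 counts in both libraries. With 2 libraries of 1 group no test between conditions exists, and no p-value is given. All intervals are 95% intervals that cover counting error only.

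All 7 members reached at least 10 counts in both libraries, against 17.8% of all loci in the tables. Together they held 3.95% of the sense counts in replicate 1 (exact binomial interval 3.92 to 3.98%) and 3.71% in replicate 2 (3.68 to 3.73%), a mean of 3.83% ± 0.17 (SD, n = 2). Most of that share came from Mir322. Without Mir322 the other 6 loci held 0.474% and 0.663%. No member had any count on the opposite strand in either library, which allows up to 3 counts, or 1.55 CPM in replicate 1 and 1.29 CPM in replicate 2.

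Mir322, the lead member and the one with the miR-15/16 seed, had 67468 counts in replicate 1 and 70653 in replicate 2. This is 34746 and 30455 CPM, a mean of 32601 ± 3034 CPM (SD, n = 2). It was the locus with the 5th highest count of all in replicate 1 and the 8th in replicate 2. These ranks leave out reads placed at several positions. Mir322 alone gave 88.0% of the counts of the cluster in replicate 1 and 82.1% in replicate 2, or 7.32 and 4.60 times the sum of the other 6 loci.

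Mir503, whose seed departs from that of Mir322 at a single base, had 2204 and 2949 counts, which is 1135 and 1271 CPM (mean 1203 ± 96.3 CPM, SD, n = 2). The 2 genes are separated by 200 bases, yet Mir322 stood above Mir503 by 4.94 on the log2 scale in replicate 1 and 4.58 in replicate 2, a mean of 27.1-fold.

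Mir351 was the second most abundant member. It had 4512 counts in replicate 1 and 9482 in replicate 2, or 2324 and 4087 CPM (mean 3205 ± 1247 CPM, SD, n = 2). It exceeded Mir503, 630 bases upstream, by 1.03 on the log2 scale in replicate 1 and by 1.68 in replicate 2. On the log2 scale the replicates of Mir351 were further apart than those of any other member averaging 100 or more counts.

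Mir542, whose 3p arm is known as a repressor of the survival factor survivin, had 1842 and 2143 counts, giving 949 and 924 CPM (mean 936 ± 17.6 CPM, SD, n = 2). The level of Mir542 lay just under that of Mir503. Mir503 exceeded it by only 0.26 on the log2 scale in replicate 1 and 0.46 in replicate 2, the narrowest difference between any 2 members, but still wider than the replicate difference of either locus.

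The 3 distal loci were the lowest. Mir450b had 562 and 676 counts, or 289 and 291 CPM. Mir450-1 had 61 and 97 counts, or 31.4 and 41.8 CPM, and Mir450-2 had 30 and 26 counts, or 15.5 and 11.2 CPM. Mir450b was thus 7.97-fold above Mir450-1 on average, although only 75 bases lie between them. As the shared 5p sequence keeps reads of miR-450a-5p out of both Mir450-1 and Mir450-2, this difference and the drop of 69.9-fold from Mir542 to Mir450-2 are upper values, and the true levels of miR-450a are not known from these tables.

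**Figure D1:**
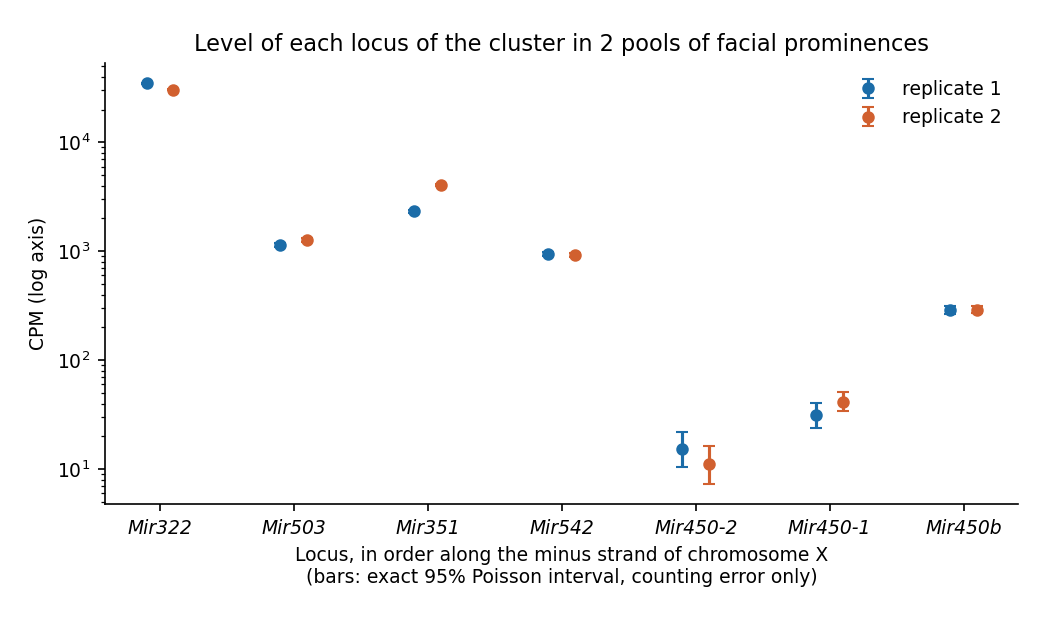
Levels of the 7 loci in CPM on a log axis, placed in their order along the minus strand, with 1 point for each replicate and exact 95% Poisson intervals. Mir322 lies highest, at 34746 and 30455 CPM, Mir351 is the member with the visible gap between pools (2324 and 4087 CPM), and Mir450-2 and Mir450-1 are lowest.

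The order of the levels was therefore Mir322, Mir351, Mir503, Mir542, Mir450b, Mir450-1 and Mir450-2 in both libraries, and it did not follow position along the strand. A pair was called different when its log2 difference in each library was larger than the replicate difference of each of its loci on that scale. All 6 pairs of adjacent members passed, against 93.9% of 99 adjacent pairs over the whole genome (same strand, at most 10 kb apart, mean counts of at least 10), so the share is that of clustered loci in general. The median difference between adjacent members was 5.63-fold, beside 5.87-fold over the 99 pairs. All 21 pairs that can be formed among the 7 members passed as well. The levels of Mir450-1 and Mir450-2 rest on incomplete counts. Their places in the order, the calls of pairs with them and the median over adjacent members therefore describe counted reads only. The same holds for the values over the 99 pairs, whose loci can also lose reads placed at several positions.

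The loci closest to Mir322 in level, by Euclidean distance of log2(CPM + 1) over the 2 libraries, were Mir214 (distance 0.29), Mir99b (0.30) and Mir130a (0.31). Those closest to Mir351 were Mir181b-2 (0.34), Mir483 (0.45) and Mir125b-1 (0.54). With 2 libraries this likeness says only that the levels were near each other. Each of the 3 loci nearest to Mir322 was higher in replicate 2, with log2 ratios from 0.12 to 0.18, whereas Mir322 was higher in replicate 1.

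The ratio of CPM in replicate 2 to replicate 1 was then compared along the cluster. Mir322 was lower in replicate 2, with a log2 ratio of -0.19 (interval -0.21 to -0.17). Mir503 was slightly higher there, at 0.16 (0.08 to 0.24). Mir351 had a log2 ratio of 0.81 (0.76 to 0.87), which is 1.76-fold. Mir542 and Mir450b were near equality, at -0.04 (-0.13 to 0.05) and 0.01 (-0.15 to 0.17). At Mir450-2 and Mir450-1 few counts left wide intervals, from -1.28 to 0.34 around -0.46 and from -0.06 to 0.90 around 0.41, so no difference between pools was detectable there at this depth.

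Mir351 had the log2 ratio farthest from 0 of the 7 members. Counting intervals alone did not single it out: that of Mir351 overlapped only with Mir450-1 and that of Mir322 only with Mir450-2, both thinly counted. None of the 5 members that averaged 100 or more counts passed 2-fold, beside 1.95% of 257 such loci. With a limit of 0.5 on the log2 scale 1 of the 5 passed, Mir351, beside 7.39% of the 257. Among the 257 loci Mir351 ranked 10th by the size of its log2 ratio, and among the 138 that averaged 1000 or more counts it ranked 3rd. The median absolute log2 ratio was 0.14 over the 257 loci. The median log2 ratio over all 7 members was 0.01, the value of Mir450b, which was also the median of the 257.

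**Figure D2:**
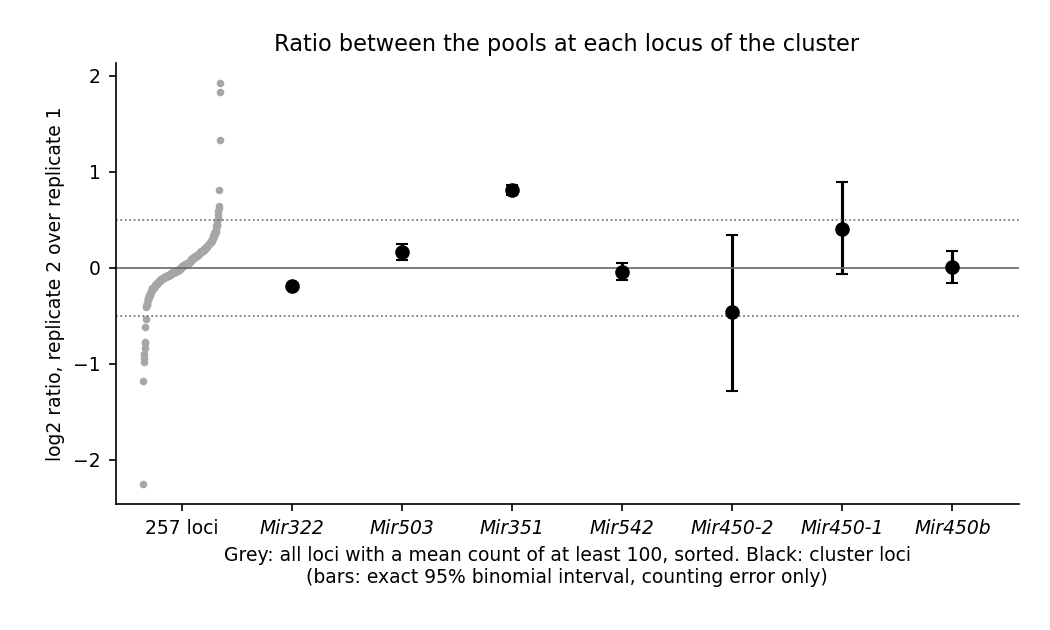
Log2 ratio of replicate 2 to replicate 1 for each member (black, with exact 95% binomial intervals) beside the sorted ratios of the 257 loci averaging 100 or more counts (grey). Dotted lines mark 0.5 in each direction. Mir351 lies above the upper line at 0.81, and the intervals of Mir450-2 and Mir450-1 reach across 0.

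Because adjacent loci are read in the same library, a difference between their ratios does not depend on how the libraries are scaled. The log2 ratio of Mir351 was 0.65 above that of Mir503 and 0.85 above that of Mir542, the loci on either side of it. Among 79 adjacent pairs with mean counts of at least 100 these were the largest differences: Mir351 with Mir542 ranked 1st and Mir503 with Mir351 ranked 2nd. These ranks depended on the count minimum. With mean counts of at least 50 the erythroid pair Mir144 and Mir451a (1.35, where Mir144 averaged 98 counts) came first of 85 pairs and the pairs of Mir351 ranked 2nd and 3rd. With at least 10 they ranked 3rd and 6th of 99, with the thinly counted Mir450-2 and Mir450-1 (0.87) among the pairs above them. A difference of over 0.5 was found in 5.06% of the 79 pairs, and the median was 0.14. The other pairs past 0.5 were Mir34b with Mir34c (0.58) and Mir431 with Mir433 (0.51), named after their values were seen. Mir322 and Mir503 differed by 0.35 and ranked 8th. Pairs that share a locus are not independent, and both of the leading pairs contain Mir351.

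**Figure D3:**
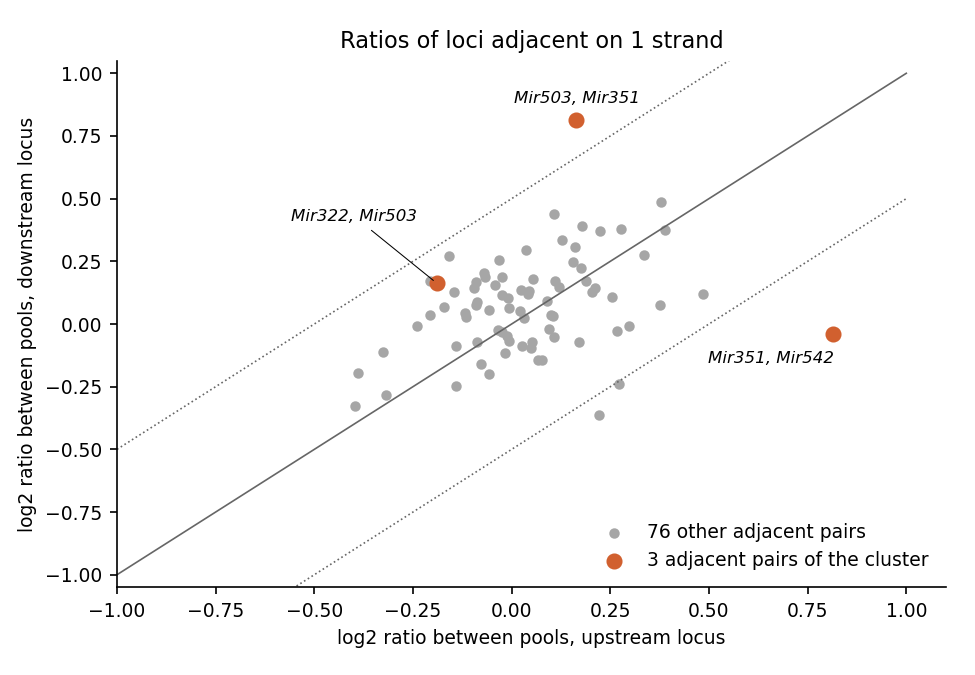
Log2 ratio between pools of the upstream locus (x axis) against that of the downstream locus (y axis) for 79 pairs of loci adjacent on 1 strand, with mean counts of at least 100. The solid line is equality and the dotted lines lie 0.5 away. The pairs of Mir351 with Mir503 and with Mir542 are farthest from equality, and Mir322 with Mir503 lies inside the dotted lines.

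Ratios were also compared over whole clusters. Those of the 5 members averaging 100 or more counts ran from -0.19 to 0.81, a range of 1.00 on the log2 scale. This was the widest range of 12 clusters with at least 3 such loci, and it rested on Mir351. Without Mir351 the other 4 loci ran from -0.19 to 0.16, a range of 0.35, and 3 of the other clusters were wider. The X-linked Mir106a to Mir363 cluster, 305429 bases away on the same strand, had a range of 0.29 over 5 loci. Mir17hg on chromosome 14, which encodes Mir17 to Mir92-1, had 0.29 over 5, and Mir106b to Mir25 on chromosome 5 had 0.15 over 3. The lead of a single locus was also more marked. Mir322 held 85.2% of the mean level of its cluster, the second highest share of the 12. Mir106a held 37.7% and 37.0% of its own cluster in replicates 1 and 2, Mir17 held 60.3% and 60.8%, and Mir93 held 54.0% in each. All these shares describe counted reads only. That of Mir322 is an upper value, because the counts of Mir450-1 and Mir450-2 are incomplete.

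Loci of other cell types also differed between the pools, and their values stand here beside the ratio of Mir351. Among the 257 loci only Mir208a, Mir208b and Mir451a had a higher log2 ratio toward replicate 2, at 1.93, 1.84 and 1.33. Others of the 257 lay farther from 0 than Mir351 toward replicate 1, down to a log2 ratio of -2.25. The striated muscle list had 8 measured loci, 5 of them with at least 10 counts in both libraries, and Mir133a-1 and Mir133a-2 at 0. It summed to 628 and 1494 CPM, with 4 of 5 loci higher in replicate 2. Reads placed at several positions are missing from all these lists, so a count of 0 need not mean absence. The erythroid list (3 of 3 detected) summed to 280 and 614 CPM, with 2 of 3 higher. Epithelial loci were lower in replicate 2 in 7 of 7 cases, with log2 ratios from -0.40 to -0.04. Their sums were 33088 and 29540 CPM, and none was at 0. Mesenchymal loci summed to 52455 and 55790 CPM, with 5 of 7 higher in replicate 2. Beside these counts, the median log2 ratio of the 257 loci was 0.01, so loci in general were split almost evenly between the directions. The part of cell composition in the ratios of Mir351 and Mir322 was not tested. In pooled tissue fewer cells of a type and less RNA per cell cannot be told apart.

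The seeds printed above were used to ask how much of each shared seed came from the cluster. The seed of miR-322-5p was carried by 11 loci in the RefSeq sequences, and 10 of them were counted. Mir322 had 70.8% of their counts in replicate 1 (exact binomial interval 70.5 to 71.1%) and 68.2% in replicate 2 (67.9 to 68.5%), a mean of 69.5% ± 1.82 (SD, n = 2). Mir15a followed at 7629 and 7168 CPM. Mir15b had 2787 and 2835 CPM, Mir16-1 had 2683 and 2826 CPM, Mir195a had 646 and 707 CPM and Mir16-2 had 612 and 672 CPM. The other 4, Mir6342, Mir6353, Mir6419 and Mir195b, had 0 counts in both libraries, under the limits of 1.55 and 1.29 CPM. Mir322 was above Mir15a in each library by far more than either locus differed between pools. Mir16-1 and Mir16-2 encode the same 5p sequence, so their counts are incomplete and the share of Mir322 is an upper value. These shares take the 5p arm as the source of the counts, which the tables do not separate.

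Within this seed group the ratio of Mir15a, -0.09 (-0.12 to -0.06), pointed the same way as that of Mir322. Mir15b was at 0.02 (-0.03 to 0.08), and Mir16-1, Mir16-2 and Mir195a were at 0.07, 0.13 and 0.13.

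For Mir351 the picture was different. It shared its seed with 5 other loci, all counted, of which Mir6394 and Mir6367 had 0 counts. Mir125a led the group with 7424 and 8676 CPM. Mir125b-1 had 2723 and 2918 CPM and Mir125b-2 had 581 and 602 CPM, both incomplete because they encode the same 5p sequence. Mir351 had 17.8% of the counts of the group in replicate 1 (17.3 to 18.3%) and 25.1% in replicate 2 (24.7 to 25.5%), which are upper values for the same reason. It ranked below Mir125b-1 in replicate 1 and above it in replicate 2, so the order of these loci was not settled, the more so as reads of Mir125b-1 can be missing. The log2 ratios of Mir125a (0.22), Mir125b-1 (0.10) and Mir125b-2 (0.05) were all smaller than that of Mir351, and their intervals, the highest of which ended at 0.26, did not overlap with it.

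**Figure D4:**
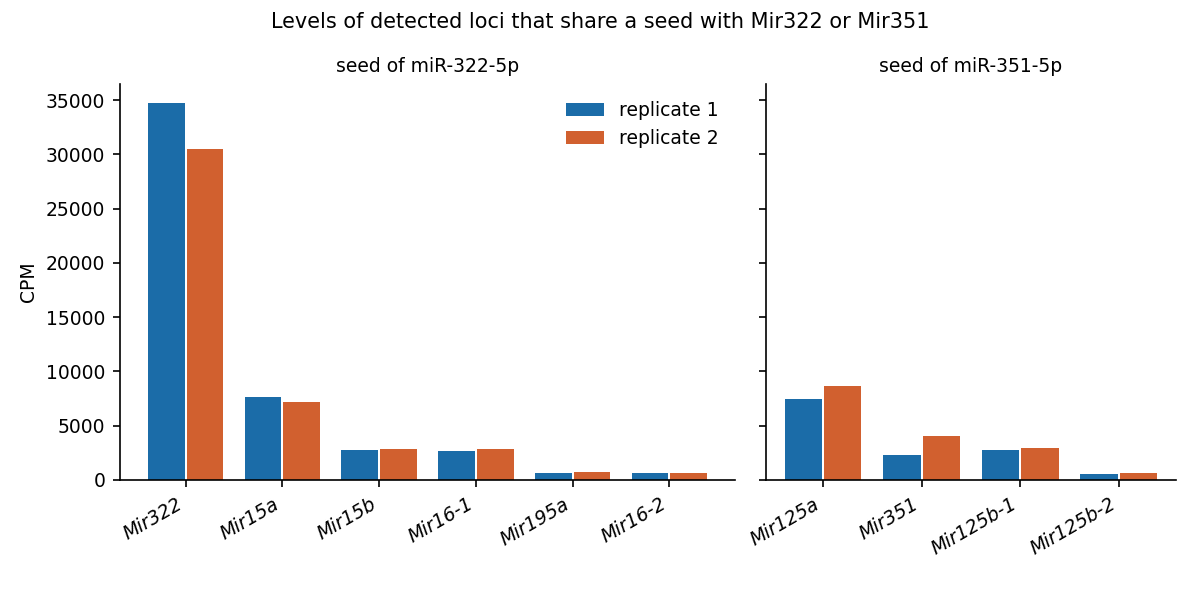
CPM in each replicate for the loci with at least 10 counts that share the seed of miR-322-5p (left) or of miR-351-5p (right). Mir322 is the tallest of its group in both pools, and Mir351 lies below Mir125b-1 in replicate 1 and above it in replicate 2.

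For the other members no comparable family was found. The 5p seed of Mir503 and the 3p seed of Mir542 occurred in no other locus of the table. The 5p seed of Mir542 was shared only with Mir6966, which had 1 count in replicate 1 and 0 in replicate 2. The 3p seed of Mir450-1 and Mir450b was shared only with Mir6352, at 0 counts in both libraries.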

How the data were processed

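Small-RNA libraries from 2 pools of facial prominences were counted per microRNA gene. The authors deposited raw read counts on mm10 with GENCODE M4, per the files that accompany the tables; the sources used here do not state the aligner, counting program or filters. Sense counts were taken, and library sizes exclude the lines without a gene. Of all reads, 30.9% and 38.6% were unmapped, 22.7% and 20.5% placed at several positions, and 5.51% and 6.75% outside loci, in replicates 1 and 2. The libraries were not copies of each other (chi-square of their counts 14804, 406 degrees of freedom).

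Identifiers were matched without version to GENCODE M21 on the same assembly (1894 of 1973; the other 79 held 4 counts). Log2 ratios used CPM with 0.5 counts added. Intervals were exact: Clopper-Pearson for shares and ratios, Poisson for levels. RefSeq arms were matched by position, and families were loci with identical bases 2 to 8. No test between conditions was possible. The text names the members, loci sharing a seed with them, annotated genes within 50 kb, the 3 loci nearest in level to Mir322 and Mir351, 3 other clusters and loci of the marker lists. Mir34b, Mir34c, Mir431, Mir433 and Mir497b were named after their values were seen, and Mir144, Mir208a, Mir208b and Mir451a, which are on marker lists, were singled out by their ratios. Members and lists were chosen with earlier results of these data known. Scaling with edgeR 4.0.16 (TMM) and DESeq2 1.42.0, other count minimums, both strands and single replicates were tried. Software was R 4.3.3, matplotlib 3.10.9, scipy 1.17.1, pandas 2.3.3, numpy 2.4.6 and Python 3.11.15. The ratio steps were tested on simulated counts. Coverage of the intervals was tested only with Poisson counts, which hold no variation beyond counting error. Mir1a-2 was not analysed here.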

Additional observations from a re-analysis of the deposited data

Results flagged for a closer look

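Counts opposite Mir497b drew attention because they lie outside the sense counts used above and far over the limit of 3 counts. Mir497, which has the seed of miR-322-5p, lies there on the other strand (chromosome 11, 70234717 to 70234800, plus strand) and has no line of its own in the tables. There were 1546 such counts in replicate 1 and 1885 in replicate 2, or 796 and 813 CPM, against 2 sense counts of Mir497b in each library. With these counts credited to Mir497, a step chosen after seeing the data, the share of Mir322 in its seed group was 68.3%.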

How the results depend on the processing

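Of 55 recomputed values 49 stayed within the limits set for them. Some of the 49 could not have left their limits. A share from a single replicate always lies within the SD of the 2, which was its limit. Members detected in both libraries also stay detected in either alone or at a lower minimum. A value that did leave its limits was the number of adjacent members that differ in level. It was 3 in place of 6 when mean counts of at least 100 were required, since only 3 such pairs remain. The others that left their limits were chosen after seeing the data. By the difference in ratio, Mir351 with Mir542 ranked 2 and 3 among adjacent pairs, and Mir503 with Mir351 ranked 3 and 6, with mean counts of at least 50 and 10; more pairs are then ranked. The range of ratios in the cluster was 0.35 with Mir351 left out. From single replicates the share of the cluster was 3.71 to 3.95%, that of Mir322 in its seed group 68.2 to 70.8%, that of Mir351 in its group 17.8 to 25.1%, and 7 members were detected each time. The 28 log2 ratios recomputed with TMM or DESeq2 factors, counts irrespective of strand or no added count moved by at most 0.0044, and none changed sign; that of Mir351 ran from 0.81 to 0.82. Ratios and pairs need both libraries, so they have no value from a single replicate. No paired analysis was possible because there is only 1 group. Depth limits Mir450-1 and Mir450-2, and the arms of a hairpin are not separated.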
